A study of Mus musculus with 2 samples.

Results

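Bhlhe40, Batf, Irf4, Maf, Ahr and Rora are 6 transcription factor genes that shape what effector T cells secrete, and their levels were read here in donor T cells of the colon in graft-versus-host disease. The set is given by gene name, with no threshold on a value, and all 6 were among the 31053 genes measured. The recipients were lethally irradiated Balb/c mice that received C57BL/6 marrow together with splenocytes holding 800000 αβ T cells, so that the T cells met a foreign host. On day 21 the colons of 5 mice were dissociated and pooled, and cells positive for both TCR beta and H2-Kb, a class I molecule of the donor strain, were sorted. There was no untransplanted, syngeneic or treated group: the pool is 1 sample. Its cDNA gave a 10x Genomics 5' RNA library by droplets and a second library of T cell receptor (TCR) transcripts. The titles name CD4 T cells, but the sort did not select CD4, and CD8 T cells were abundant.

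The RNA table held 5348 barcodes with 2549 to 39138 unique molecular identifiers (UMIs, each standing for 1 captured transcript) and a median of 4795. Of these, 5333 with at least 500 genes and at most 10% mitochondrial UMIs were kept, and 5133 of the kept barcodes were also in the TCR table. The CD4 class, with a Cd4 UMI and no Cd8a or Cd8b1 UMI, held 1861 cells, and the CD8 class, with the reverse, held 2391. A further 301 cells had UMIs of both and 780 of neither, and they entered no class comparison. Cells of 1 pool are not replicates, so no p-value was computed. Levels are UMIs per 10000 UMIs summed over a class, with 95% intervals that cover counting error only, and a ratio is called 1.5-fold where it is at least 1.5 or at most its inverse. Levels of different genes are not compared with each other, because capture differs by gene.

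As background, Bhlhe40 is a basic helix-loop-helix repressor that helper T cells need to make GM-CSF (the product of Csf2) and that restrains Il10 in other models. Batf is an AP-1 factor that pairs with Jun proteins and binds composite sites together with Irf4, a factor induced by TCR signals. Maf (c-Maf) drives Il10 in several helper subsets, Ahr is a ligand-activated receptor for environmental and dietary compounds that supports Il22 and Il10, and Rora is a nuclear receptor that acts in Th17 cells and is also active in type 2 lymphocytes. In mm10 they lie at chr6:108660629-108666925 (Bhlhe40, plus strand), chr12:85686669-85709087 (Batf, plus), chr13:30749226-30766976 (Irf4, plus), chr8:115682942-115707794 (Maf, minus), chr12:35497974-35535038 (Ahr, minus) and chr9:68653786-69388246 (Rora, plus). Opposite-strand genes overlap 4 of them, with 1 to 48 UMIs in kept cells. The overlap with most UMIs is Gm48236 over Ahr, which itself had 802 UMIs, and the sources used here do not say whether counting used strand.

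All 6 factors had a higher level in CD4 class than CD8 class cells, by 1.45-fold to 7.25-fold. Maf differed most, at 1.84 UMIs per 10000 among CD4 class cells (1.76 to 1.92, from 2043 UMIs) and 0.254 among CD8 class cells (0.229 to 0.28, from 380 UMIs), a ratio of 7.25 (6.50 to 8.11). Ahr stood at 0.382 and 0.0981, a ratio of 3.89 (3.22 to 4.73). Rora stood at 7.49 and 3.87, a ratio of 1.93 (1.87 to 2.0). Bhlhe40 stood at 14.1 and 9.20, a ratio of 1.53 (1.5 to 1.57). Batf (3.88 and 2.68, ratio 1.45) and Irf4 (0.560 and 0.384, ratio 1.46) were just under 1.5-fold. Thus 4 of the 6 were at 1.5-fold or more higher and none lower, beside 9.6% of the 10974 genes compared that were higher and 8.05% that were lower. The median log2 ratio of the 6 was 0.78, against -0.04 over all genes compared.

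**Figure D1:**
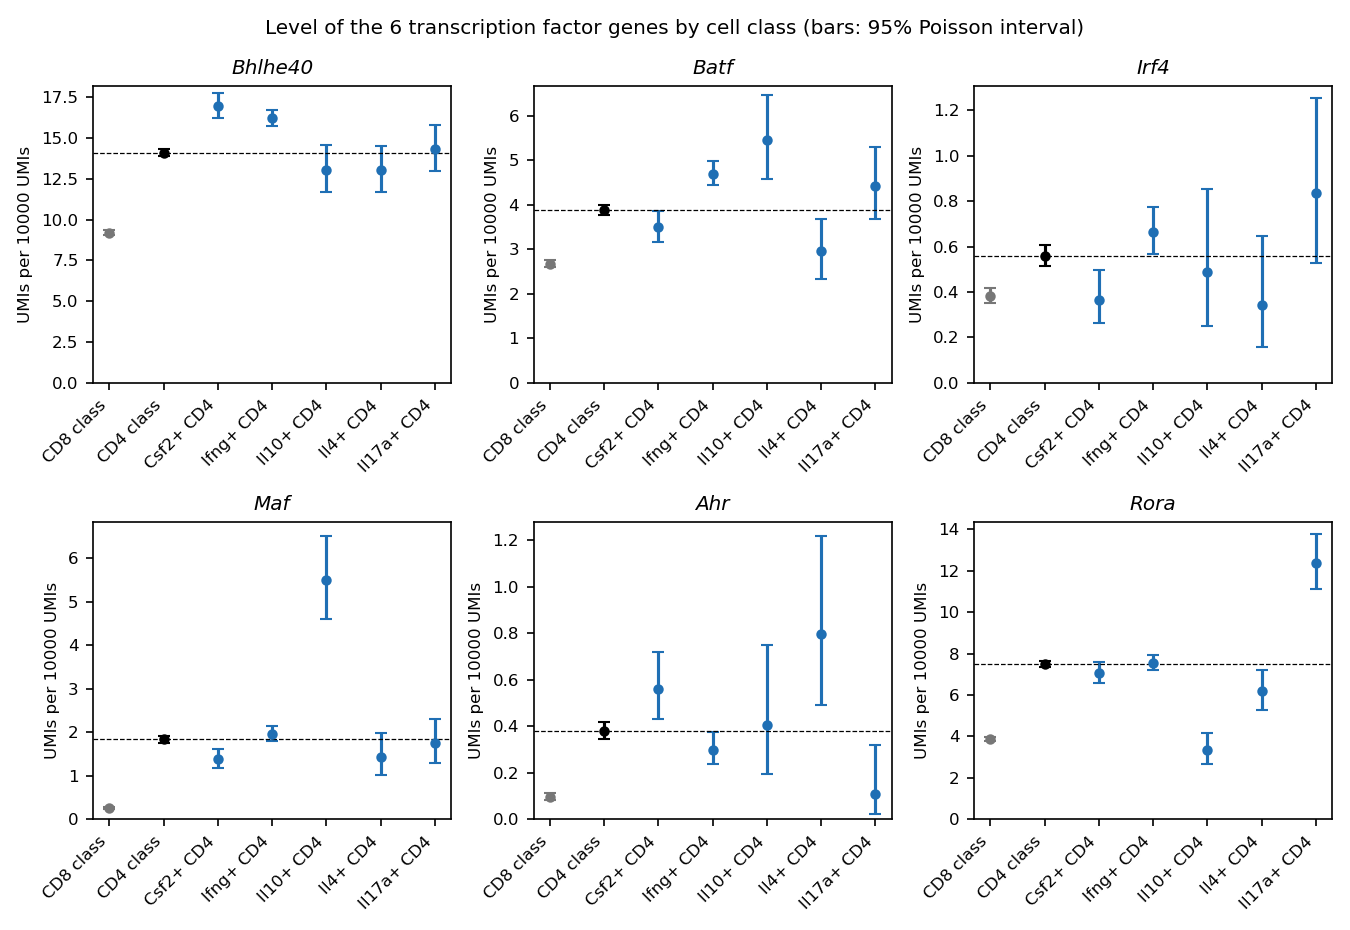
Level of each factor (vertical axis, UMIs per 10000 UMIs) in the CD8 class, the CD4 class and the CD4 class cells positive for each of 5 cytokine genes, with 95% Poisson intervals. The dashed line marks the CD4 class as a whole; Maf in Il10-positive cells (5.50) and Rora in Il17a-positive cells (12.4) lie well above it, and Rora in Il10-positive cells (3.34) lies below.

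The share of cells with a UMI was also larger in the CD4 class for all 6 once each cell was thinned to 2000 UMIs, which removes differences in depth. Maf was detected in 28.3% of CD4 class cells (26.3 to 30.4, Clopper-Pearson) and 4.35% of CD8 class cells (3.57 to 5.25). Without thinning these shares were 51.1% and 10.7%, at median depths of 4768 and 4910 UMIs. Rora was detected in 67.5% and 47.5% of thinned cells, Bhlhe40 in 89.0% and 77.2%, Batf in 48.0% and 38.6%, Irf4 in 10.8% and 7.44%, and Ahr in 7.31% and 2.17%. Single cells did not carry these levels: the cell with most UMIs held at most 2.72% of any factor's UMIs in either class.

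Most CD4 class cells carried more than 1 factor. Of them, 36.1% had UMIs of 2 factors and 35.4% of 3 after thinning, against 37.0% and 20.2% of CD8 class cells, and 1.67% had none against 9.08% in the CD8 class. In the CD4 class the largest difference in percentage points between positive and negative cells of a factor was that of Rora by Bhlhe40. Rora was detected in 68.6% of Bhlhe40-positive CD4 class cells (66.3 to 70.8) and 59.0% of Bhlhe40-negative ones (52.0 to 65.8). In the CD8 class the values were 49.8% and 39.8%. Batf was detected in 41.0% of Bhlhe40-positive and 30.6% of Bhlhe40-negative CD8 class cells. Batf and Irf4, which act at shared sites, showed little of this at the level of RNA in the CD4 class: Irf4 was detected in 10.9% of Batf-positive and 10.7% of Batf-negative cells.

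The relatives and partners of the 6 factors were counted from lists by role. Of the AP-1 partners of Batf, 7 of 9 measured genes had enough UMIs, and 4 of the 7 were at 1.5-fold or more higher in the CD4 class, with a median log2 ratio of 0.62 against -0.04 over all genes compared. They were Junb (1.86-fold), Fosb (1.71-fold), Fos (1.60-fold) and Fosl2 (1.54-fold). The genes Fos, Fosb and Junb also belong to a list of 14 genes induced by tissue dissociation, 7 of which were at 1.5-fold or more higher in the CD4 class. That list summed to 69.3 UMIs per 10000 in CD4 class cells and to 43.8 in CD8 class cells, and its part in the levels of the 6 factors was not tested. Among IRF genes, Irf5 was higher in the CD4 class (1.87-fold) and Irf8 (0.28-fold) and Irf1 (0.664-fold) were lower, so the family had no common direction. Of the Maf and Bach list 2 of 8 were higher, the small Maf genes Maff (3.19-fold) and Mafg (1.60-fold). Among clock genes, whose loop includes Rora, Nr1d1 (3.90-fold, 1.77 to 9.45) and Arntl (1.53-fold, 1.30 to 1.81) were higher. Among E-box factors and their Id inhibitors only Id3 (1.51-fold) passed 1.5-fold, of 9 compared. Of the partners and targets of Ahr none of 6 did; Tiparp, a target of Ahr, stood at 1.15-fold (1.0 to 1.32). Known targets were counted too. Of those of Batf and Irf4, 6 of 8 were higher in the CD4 class, such as Ccr8 at 10.8-fold and Il21 at 15.4-fold. All 6 of those of Maf were higher, Il21 again among them, with Cxcr5 at 4.27-fold. Of 13 helper and effector fate factors 4 were higher, among them Foxp3 (5.95-fold), Gata3 (2.78-fold) and Tcf7 (2.14-fold), and 1 was lower, Eomes (0.30-fold).

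Markers of other cells were also summed. The fibroblast list summed to 0.0144 and 0.00867 UMIs per 10000 in the CD4 and CD8 classes, the neutrophil list to 0.0018 and 0.004, and 2.26% of CD4 class and 2.51% of CD8 class cells had UMIs of 2 or more of 8 macrophage genes. The sum over the 10 macrophage genes, which also include Cd74 and H2-Aa, was 2.36 UMIs per 10000 in CD4 class cells and 1.48 in CD8 class cells. The epithelial list summed to 0.119 and 0.0494, the B or plasma cell list to 0.0054 and 0.0367, and the NK or innate lymphoid list to 0.347 and 0.879. Without the cells that had 2 or more macrophage genes, the log2 ratio of Maf was 2.88 against 2.86 with them. The part of the other lists in the levels of the 6 factors was not tested.

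The factors marked different clusters of cells. The cells were clustered from their variable genes without the 6 factors and without the 5 cytokine genes, so these levels played no part in the clusters. Of 11 clusters, 5 were mostly of the CD4 class. Of the 780 cells with UMIs of neither, 242, 177, 107, 101 and 94 lay in these clusters (2, 4, 6, 7 and 8). The class sizes thus do not give the sizes of the lineages. Cluster 2 (850 cells) was Th17-like by 7 markers such as Il23r and Ccr6, cluster 4 (582 cells) was Th2-like by 7 such as Gata3 and Il1rl1, and cluster 7 (454 cells) was cycling-like. Cluster 6 (496 cells, led by Krt17, Dusp14 and Penk) and cluster 8 (327 cells, led by Izumo1r, Il21 and Slamf6) reached equal numbers of markers of more than 1 list and have no name. Of the CD8 clusters, 5, 9 and 10 were CD8 cytotoxic-like, though cluster 9 rests on only 3 such markers (Cd8a, Prf1 and Klrd1) beside 2 of the Treg and 2 of the NK or innate lymphoid list. Cluster 3 was cycling-like and cluster 1 had no name. Cluster 11, with 40 cells, was macrophage-like by all 10 markers of that list. It also reached all 5 fibroblast, 3 neutrophil and 3 epithelial markers, so it mixes markers of several cell types. Of its cells, 24 had UMIs of neither Cd4 nor Cd8a or Cd8b1.

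Maf had its highest level in the unnamed cluster 8, Ahr in the Th2-like cluster and Irf4 in the Th17-like cluster. Maf stood at 4.36 UMIs per 10000 in cluster 8 (4.02 to 4.72), at 2.07 in cluster 6 and 1.94 in the Th17-like cluster, whose intervals overlapped, and at 0.318 to 0.660 in the 5 CD8 clusters. Ahr stood at 0.917 in the Th2-like cluster (0.804 to 1.04) and 0.816 in the macrophage-like cluster (0.565 to 1.14), intervals that overlapped, and at most 0.334 elsewhere. In the Th17-like cluster, where Ahr is known to act, it was 0.286 (0.236 to 0.344). Rora was highest in the Th17-like cluster, at 10.6, and in cluster 6, at 10.1, with overlapping intervals, followed by the Th2-like cluster at 6.63. It was only 3.85 in cluster 8, where Maf was highest. Irf4 stood at 0.857 in the Th17-like cluster (0.768 to 0.953) and at 0.627 in cluster 5, the CD8 cytotoxic-like cluster that followed it.

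Bhlhe40 and Batf had their highest levels in cluster 6. Bhlhe40 stood at 19.1 UMIs per 10000 there (18.6 to 19.7), then at 15.3 and 15.1 in the Th2-like and Th17-like clusters, which did not differ beyond counting error. It was detected in 95.4% of the thinned cells of cluster 6. Its lowest level, 3.11 (2.76 to 3.49), was in cluster 10, CD8 cytotoxic-like cells led by the heat shock gene Hspa1a. Batf stood at 5.85 in cluster 6 and 5.06 in cluster 8, and at 0.864 in the macrophage-like cluster. Of cells of any class with a Csf2 UMI after thinning, the Th2-like cluster held 129 and cluster 6 held 100, whereas the Th17-like cluster held 6.

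**Figure D2:**
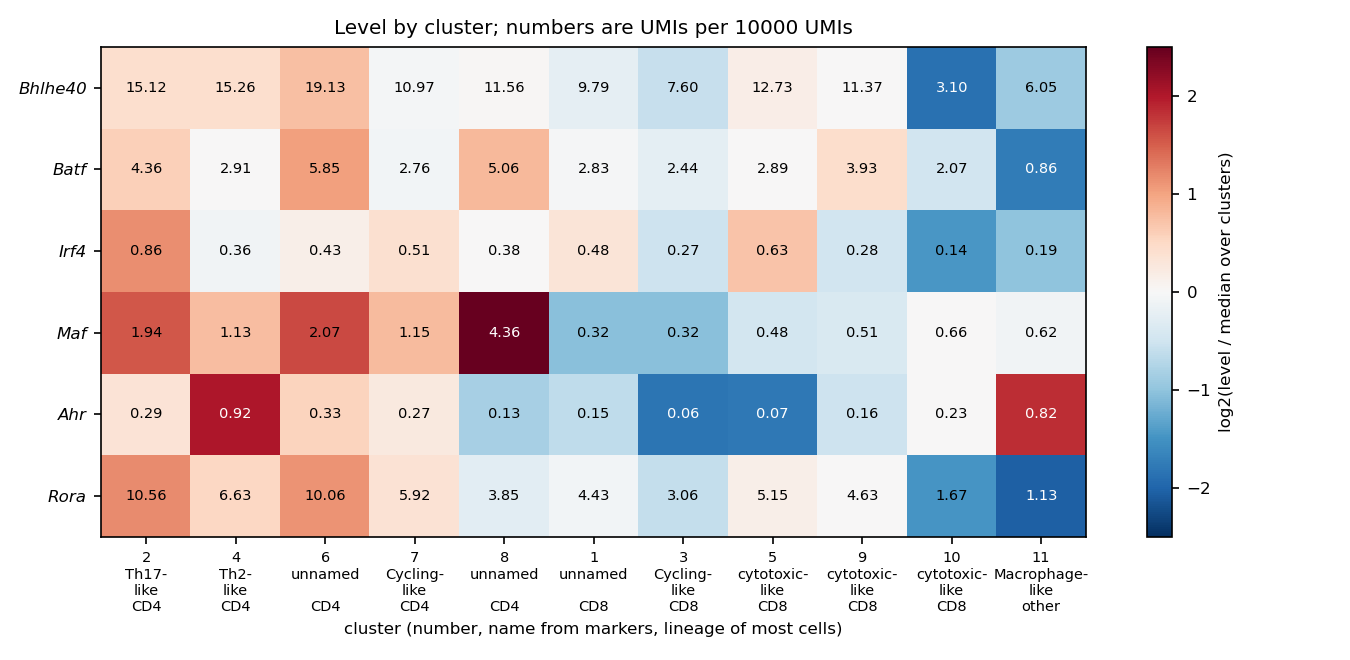
Level of the 6 factors in the 11 clusters, as UMIs per 10000 UMIs (numbers) and as the log2 of the level over the median of the clusters (colour), with CD4 clusters on the left. Maf is highest in cluster 8 (4.36), Ahr in the Th2-like cluster 4 (0.917) and Rora in the Th17-like cluster 2 (10.6).

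Across the 10 clusters of 50 or more cells, the gene whose level followed Bhlhe40 most closely was Nr4a3, an immediate early nuclear receptor of TCR signalling, with a Pearson r of 0.99 on log2 levels. Orai1, the calcium channel subunit, Nfkbia, the NF-κB inhibitor, Pim1 and Slc35d1 followed. Nearest to Rora were Dgat1, Tnip1, Nfkb2, Atl3 and Bcl10, to Batf were Atp6v0c, Prkar1a, Jarid2, Ubxn4 and Slc26a2, and to Irf4 were Zfand2b, Mier1, Gna15, Lamc1 and Rell1. Nearest to Maf were Ass1, Tmem154, Zbtb7b, the gene of the CD4 lineage factor ThPOK, Cd4 and Tasp1. Nearest to Ahr were Sh3bp5, Vav3, Nt5e, Synj1 and Gata3. Among the factors themselves, Bhlhe40 and Rora were the closest pair (r of 0.92) and Irf4 and Ahr the farthest (0.03). These are 10 clusters of 1 library out of 8035 genes searched, and clusters share lineage and depth, so the values describe likeness only.

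The cytokine comparisons set cells with at least 1 UMI of the cytokine after thinning against the other cells of the same class. The CD4 class held 184 Csf2-positive, 417 Ifng-positive, 53 Il10-positive, 44 Il4-positive and 40 Il17a-positive cells. Il4 and Il17a were each seen in 1 of 2391 CD8 class cells, or 0.0418%. Those cells had 8344 and 9657 UMIs, against a median depth of 4910 UMIs in the CD8 class. Within the CD4 class the 5 comparisons share most of their cells, so their values are given side by side and not as independent results. No CD4 class cell was positive for both Csf2 and Il10, whereas 49 were positive for Csf2 and Ifng.

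Bhlhe40 was higher in Csf2-positive CD4 class cells, as were Bhlhe40 and Batf in Ifng-positive cells of both classes, by less than 1.5-fold. In Csf2-positive CD4 class cells Bhlhe40 stood at 17.0 UMIs per 10000 (16.2 to 17.8) and in Csf2-negative cells at 13.8, and its median over single cells was 16.2 and 13.3. Over 10 random thinnings the ratio ran from 1.17 to 1.23. In CD8 class cells the Csf2-positive cells were few, 26, and Bhlhe40 stood at 16.2 in them and 9.13 in the others, a ratio of 1.78 (1.56 to 2.01).

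Ahr and Irf4 were the 2 factors at 1.5-fold in the Csf2 comparison, beside 15.5% of the 7526 genes compared (5.21% higher and 10.3% lower). Ahr was higher in Csf2-positive cells, at 0.562 against 0.361, a ratio of 1.56 (1.17 to 2.04), and Irf4 was lower, at 0.366 against 0.582, a ratio of 0.629 (0.447 to 0.864). Both calls turned on which UMIs were drawn: over 10 thinnings Ahr passed 1.5-fold in 4, with ratios of 1.28 to 1.59, and Irf4 in 5. Maf was lower in Csf2-positive cells, at a ratio of 0.732 (0.617 to 0.862), Rora (0.938) and Batf (0.890) were close to the other cells, and Batf stood at 1.09 with 1 cell per clonotype (35 positive cells).

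Of these ratios, 4 were nearer to 1 once clusters were matched. Set against the level expected from Csf2-negative cells of the same clusters, Bhlhe40 stood at 1.12, Ahr at 1.09, Irf4 at 0.763 and Maf at 0.920, whereas Batf (0.883) and Rora (0.930) changed little. Within cluster 6 Bhlhe40 was 21.5 in 68 Csf2-positive and 18.1 in 270 Csf2-negative cells, a ratio of 1.19 (1.09 to 1.29). Within the cycling-like CD4 cluster the ratio was 1.16 (1.04 to 1.30), and within the Th2-like cluster 1.05 (0.964 to 1.15), an interval that includes 1. Rora went 2 ways, at 1.27 (1.11 to 1.44) in the Th2-like cluster and 0.770 (0.678 to 0.871) in cluster 6.

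Other genes moved with Csf2 as well. The AP-1 genes Fosb (1.96-fold), Fos (1.67-fold) and Jund (1.57-fold) were higher in Csf2-positive cells, and 7 of 13 genes of the dissociation list passed 1.5-fold upward, with a summed level of 94.9 UMIs per 10000 against 66.5. Gata3, the Th2 factor, was 2.28-fold higher (1.95 to 2.65), and Ifng 2.29-fold higher. In a list of known Batf and Irf4 targets 3 of 8 genes were higher and 5 lower; Il1rl1 (2.03-fold), Il21 (1.95-fold) and Ccr8 (1.84-fold) were higher and Ctla4 (0.531-fold) and Icos (0.666-fold) lower. Il10, on the same list, had 0 UMIs in Csf2-positive cells and 198 in the others. The macrophage list summed to 4.03 UMIs per 10000 in Csf2-positive and 2.18 in Csf2-negative cells, mostly from Cd74, while Csf1r, Adgre1, C1qa and C1qb were at 0 UMIs in the Csf2-positive cells. The part of either list in the ratio of Bhlhe40 was not tested.

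Of these groups, cells with both Csf2 and Ifng had the highest Bhlhe40. Its level was 19.1 UMIs per 10000 in the 49 cells with both (17.6 to 20.8), 16.1 in the 135 with Csf2 alone of the pair, 15.8 in the 368 with Ifng alone of the pair, and 13.3 in the 1210 cells with none of the 5 cytokines (13.0 to 13.6). Irf4 split the same cells differently: it stood at 0.643 in cells with both and 0.668 with Ifng without Csf2, but at 0.260 (0.161 to 0.397) with Csf2 without Ifng, from 21 UMIs. Ahr stood at 0.247 (0.186 to 0.321) with Ifng without Csf2 and 0.519 (0.374 to 0.702) with Csf2 without Ifng.

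Read the other way, the shares of Csf2-positive and Ifng-positive CD4 class cells were larger where Bhlhe40 was higher. Of CD4 class cells with 0 Bhlhe40 UMIs of 2000, 5.37% were Csf2-positive (2.71 to 9.40), and of those with 7 or more, 13.0% were (8.26 to 19.2). For Ifng the shares were 15.1% (10.5 to 20.8) and 34.8% (27.5 to 42.7). In the CD8 class, Ifng-positive cells were 18.0% of cells with 0 Bhlhe40 UMIs 34.6% of those with 4 to 6 and 28.8% of the 66 with 7 or more (18.3 to 41.3). The median depth before thinning was 5258 UMIs in CD4 class cells with 0 Bhlhe40 UMIs and 4093 in those with 7 or more. The Il4-positive share of the CD4 class was 1.46% with 0, 2.88% with 2 to 3 and 0.621% with 7 or more, and the Il17a-positive share 1.46%, 3.02% and 1.86%. Il10 differed in direction over the lower bins: 5.85% of CD4 class cells with 0 Bhlhe40 UMIs were Il10-positive (3.06 to 10.0), 1.73% with 2 to 3 (0.895 to 3.0) and 3.73% with 7 or more, where the interval of 1.38 to 7.93 covers the others.

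**Figure D3:**
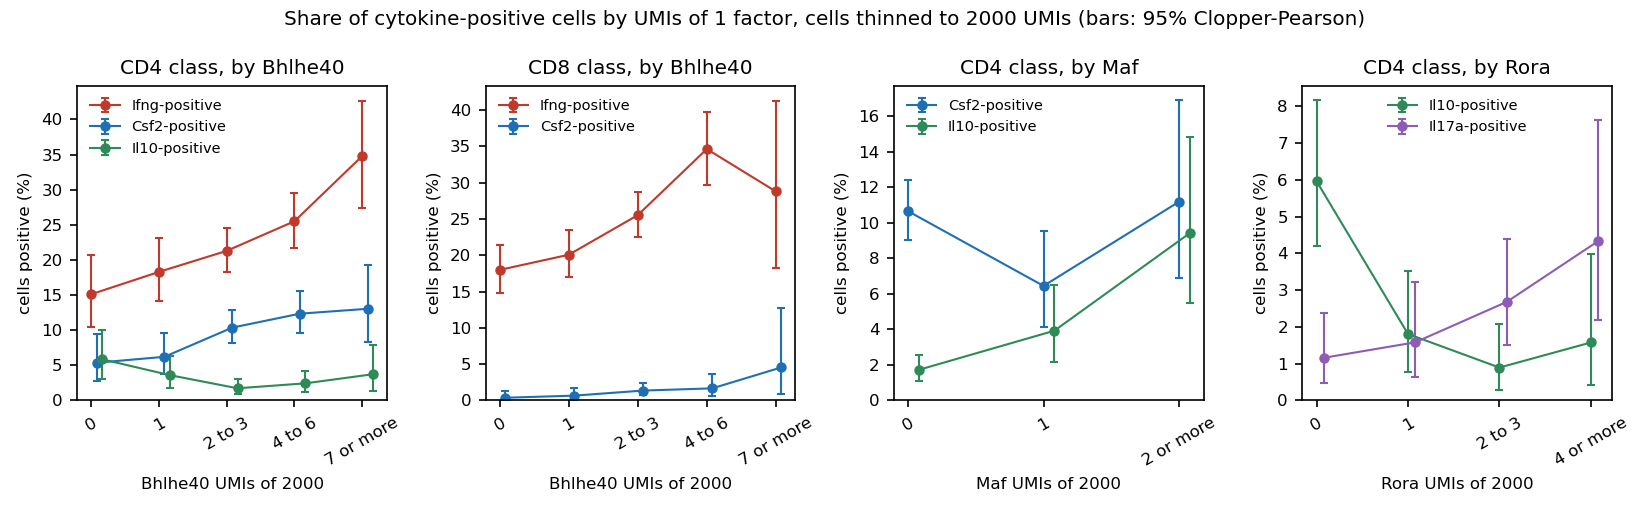
Percent of cells positive for a cytokine gene (vertical axis) by the UMIs of Bhlhe40, Maf or Rora in the same cells thinned to 2000 UMIs (horizontal axis), with 95% Clopper-Pearson intervals. The Ifng-positive share climbs from 15.1% to 34.8% over the Bhlhe40 bins of the CD4 class, and the Il10-positive share from 1.72% to 9.41% over those of Maf.

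None of the 6 factors was at 1.5-fold in the Ifng comparison of the CD4 class, where 7.18% of 9124 genes were (3.06% higher and 4.12% lower). Bhlhe40 stood at 16.2 and 13.5 UMIs per 10000, a ratio of 1.2 (1.16 to 1.25), Batf at 4.70 and 3.64, a ratio of 1.29 (1.21 to 1.38), and Irf4 at a ratio of 1.26 (1.05 to 1.5), which was 0.840 with 1 cell per clonotype (66 positive cells). Maf (1.09) and Rora (1.01) had intervals that include 1, and Ahr was lower, at 0.737 (0.567 to 0.947). Within the 5 CD4 clusters the ratio of Bhlhe40 ran from 1.04 in cluster 6 to 1.25 in the cycling-like cluster, and that of Batf from 1.0 in cluster 6 to 1.79 in the Th2-like cluster (1.46 to 2.18). In the same comparison the dissociation list summed to 83.8 UMIs per 10000 in Ifng-positive and 65.1 in Ifng-negative cells, with 4 of 14 genes at 1.5-fold or more higher. The macrophage list summed to 1.30 and 2.68, with 5 of 7 genes compared lower and 1 higher. The part of either list in these ratios was not tested.

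The CD8 class gave similar values for Ifng. Bhlhe40 stood at 11.1 in 571 Ifng-positive and 8.61 in 1820 Ifng-negative cells, a ratio of 1.29 (1.25 to 1.34), and Batf at a ratio of 1.37 (1.28 to 1.46). Irf4 (1.57, 1.31 to 1.87) and Ahr (0.543, 0.325 to 0.867) were at 1.5-fold, beside 6.21% of 9527 genes (2.73% higher and 3.48% lower). Over 10 thinnings Irf4 ran from 1.37 to 1.82, and Ahr from 0.543 to 1.01, so that only 2 of the 10 gave the call of Ahr. In each of the 5 CD8 clusters both Bhlhe40 (1.11 to 1.34) and Batf (1.23 to 1.60) had a ratio above 1, though for Bhlhe40 in clusters 9 and 10 the interval includes 1. The AP-1 genes Jun (2.33-fold) and Fos (1.69-fold) and the IRF gene Irf8 (1.96-fold) were higher in the same cells. The dissociation list summed to 59.7 UMIs per 10000 in Ifng-positive and 38.9 in Ifng-negative CD8 class cells. The macrophage list summed to 0.645 and 1.73, with 6 of 8 genes compared lower, and Csf1r and Adgre1 were at 0 UMIs in the Ifng-positive cells. The part of either list in these ratios was not tested.

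Maf was high and Rora low in Il10-positive CD4 class cells. Maf stood at 5.50 UMIs per 10000 in 53 Il10-positive cells (4.61 to 6.50, from 135 UMIs) and 1.76 in the other 1808, a ratio of 3.13 (2.61 to 3.73), and its median over single cells was 4.70 and 0.442. After thinning it was detected in 56.6% of Il10-positive cells (42.3 to 70.2) and 27.5% of the others. Rora stood at 3.34 and 7.58, a ratio of 0.44 (0.35 to 0.547). These 2 factors were at 1.5-fold, beside 20.3% of 3417 genes (9.19% higher and 11.2% lower), and both passed in each of 10 thinnings, Maf at 2.96 to 3.88 and Rora at 0.35 to 0.518. The ratio of Maf was above that of 99.6% of the genes compared, and that of Rora above 2.87%.

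Batf was also higher in Il10-positive cells, at 5.45 against 3.84, a ratio of 1.42 (1.19 to 1.69). This ratio was 1.14 with clusters matched and 0.922 with 1 cell per clonotype, which left 8 positive cells. Bhlhe40 did not differ beyond counting error, at 0.924 (0.825 to 1.03). Its ratio ran from 0.924 to 1.13 over 10 thinnings and was 1.14 with clusters matched. Irf4, from 12 UMIs, stood at 0.870 (0.447 to 1.53). Ahr had 10 UMIs in Il10-positive cells, too few to pass the filter of 10 expected UMIs, and 4 of the 10 came from 1 cell. The Il10-positive cells were shallower, with a median of 3742 UMIs against 4820. In the CD8 class 35 cells were Il10-positive, and Maf stood at 0.877 in them from 17 UMIs and 0.245 in the others, a ratio of 3.58 (2.06 to 5.81); 35.3% of those 17 UMIs came from 1 cell.

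Of the 53 Il10-positive CD4 class cells, 42 were in cluster 8. Against the level expected from Il10-negative cells of the same clusters, Maf stood at 1.52 and Rora at 0.719. Within cluster 8 Maf was 6.38 in the 42 Il10-positive and 4.36 in 166 Il10-negative cells, a ratio of 1.46 (1.16 to 1.83), and Rora 3.99 and 4.30, a ratio of 0.929 (0.702 to 1.21). Ahr in the same cluster had 8 UMIs in the Il10-positive and 4 in the Il10-negative cells, a ratio of 8.40 (2.25 to 38.1) that rests on these 12 UMIs. A single Il10-positive cell gave 4 of the 8, and the interval does not cover such differences between cells. By Maf itself, 1.72% of CD4 class cells with 0 Maf UMIs of 2000 were Il10-positive (1.10 to 2.58), 3.92% with 1 and 9.41% with 2 or more (5.48 to 14.8). By Rora, 5.96% with 0 UMIs were (4.21 to 8.16) and 0.893% with 2 to 3 (0.291 to 2.07).

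Foxp3, the regulatory T cell factor, stood at 1.02 UMIs per 10000 in Il10-positive cells (25 UMIs) and 0.0663 in the others, a ratio of 15.4 (9.33 to 24.5) for a gene below the filter of 10 expected UMIs. After thinning 48 Il10-positive cells had no Foxp3 UMI, which at this depth does not show that the gene was off, and Maf stood at 5.29 (4.38 to 6.34) and Rora at 3.35 in them. The 21 Foxp3-positive CD4 class cells, with or without Il10, had Maf at 5.74 (4.4 to 7.35) and Bhlhe40 at 9.16 (7.44 to 11.1), below the 14.1 of the CD4 class. In a list of Batf and Irf4 targets, Ctla4 was 2.17-fold higher in Il10-positive cells (1.94 to 2.42) and Prdm1, the gene of BLIMP-1, was 1.30-fold higher with an interval of 0.801 to 2.01. Irf1 (1.82-fold), Irf9 (1.72-fold) and Irf2 (1.59-fold) of the IRF list were also higher, and Jun was lower (0.479-fold). Markers of other T cell states and cells moved with the same group. Of the CD8 cytotoxic list 4 of 5 genes compared were higher in Il10-positive cells (Gzmb 4.66-fold, Gzmk 5.30-fold, Prf1 5.10-fold and Ccl5 6.71-fold) and Klrd1 was lower, and Cd40lg was lower (0.497-fold). The NK or innate lymphoid list summed to 1.51 UMIs per 10000 against 0.320, the cycling list to 7.08 against 12.3, the macrophage list to 1.51 against 2.38 and the dissociation list to 77.9 against 69.2. Their part in the ratios of Maf and Rora was not tested.

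**Figure D4:**
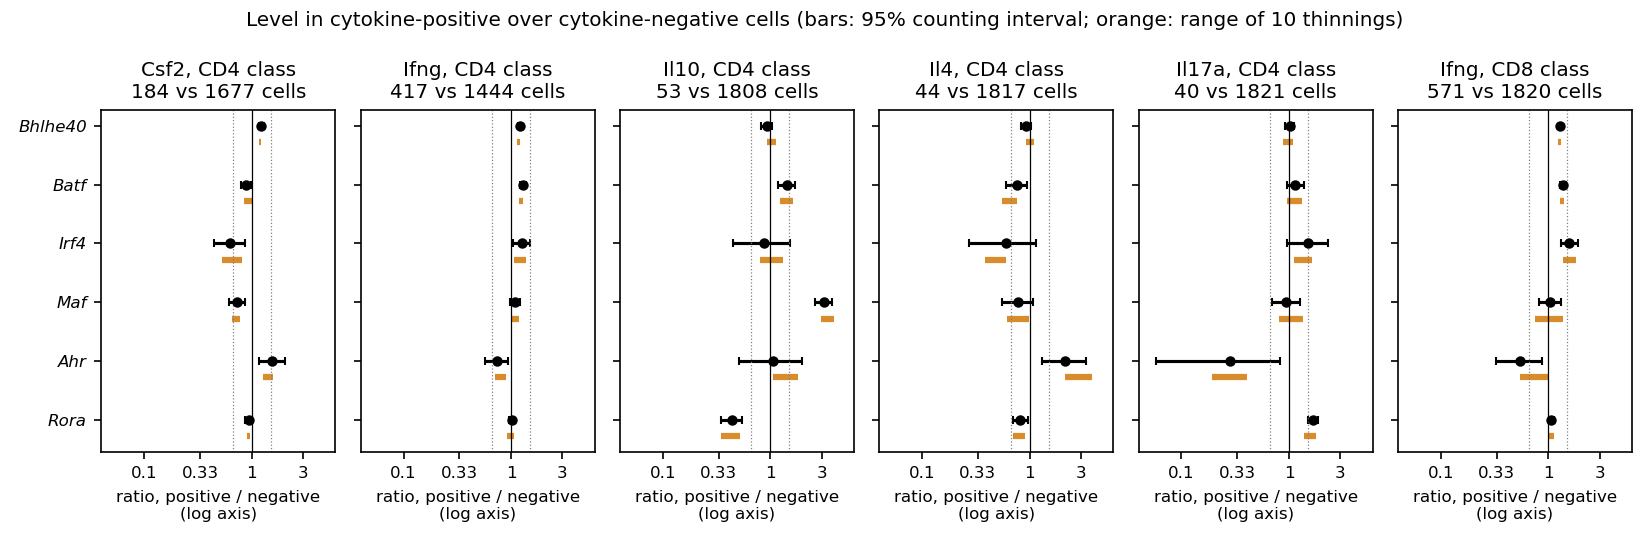
Ratio of each factor's level in cytokine-positive over cytokine-negative cells (horizontal log axis) in 6 comparisons, with 95% counting intervals (black) and the range over 10 random thinnings (orange). The dotted lines mark 1.5-fold; Maf (3.13) and Rora (0.44) in the Il10 comparison lie beyond them with their whole intervals and ranges.

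Ahr was higher in Il4-positive cells and lower in Il17a-positive cells than in the other CD4 class cells. In 44 Il4-positive CD4 class cells Ahr stood at 0.796 UMIs per 10000 (0.493 to 1.22, from 21 UMIs) against 0.372, a ratio of 2.14 (1.31 to 3.32), and over 10 thinnings the ratio ran from 2.14 to 3.82. With 1 cell per clonotype, which left 10 Il4-positive cells, the direction turned, to a ratio of 0.404. Irf4 had a ratio of 0.603 (0.275 to 1.15) from 9 UMIs. Over 10 thinnings its ratio ran from 0.383 to 0.603 and passed 1.5-fold in 10. With at least 2 UMIs for a positive cell, which left 11 Il4-positive cells, it was 1.03. Ahr and Irf4 were the 2 factors at 1.5-fold, beside 26.4% of 3629 genes (4.02% higher and 22.4% lower). Within the Th2-like cluster, which held 33 of the 44 cells, Ahr was 1.02 in Il4-positive and 0.924 in Il4-negative cells, a ratio of 1.11 (0.639 to 1.81). Bhlhe40 in the same cluster was lower in Il4-positive cells, at 0.809 (0.702 to 0.927). Maf, which drives Il4 in Th2 cells, stood at 0.779 (0.550 to 1.07) over the CD4 class. Batf was lower in Il4-positive cells, at a ratio of 0.758 (0.598 to 0.948), and over 10 thinnings its ratio ran from 0.556 to 0.758 and passed 1.5-fold in 6. With 1 cell per clonotype it was 1.29, and that of Rora, 0.821 (0.699 to 0.959) otherwise, was 1.12. Gata3 was 5.79-fold higher in Il4-positive cells, and the dissociation list summed to 96.8 against 68.7 UMIs per 10000, the macrophage list to 0.872 against 2.40 and the cycling list to 3.6 against 12.4; their part was not tested. Over all 281 Gata3-positive CD4 class cells, Ahr stood at 0.692 (0.567 to 0.837).

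Rora was high in Il17a-positive cells. It stood at 12.4 UMIs per 10000 in 40 cells (11.1 to 13.8) against 7.37 in the others, a ratio of 1.68 (1.5 to 1.87), and every one of the 40 cells had a Rora UMI before thinning, as 83.9% of the others did, at median depths of 5708 and 4735 UMIs. Rora, Irf4 (1.51, 0.950 to 2.29) and Ahr (0.28, 0.0576 to 0.825, from 3 UMIs) were the 3 factors at 1.5-fold, beside 16.4% of 3726 genes (4.29% higher and 12.1% lower). Over 10 thinnings Rora passed 1.5-fold in 7 (1.37 to 1.77), Irf4 in 3 and Ahr in 10 (0.193 to 0.404). With 1 cell per clonotype, which left 6 Il17a-positive cells, Ahr turned, to a ratio of 1.57. The dissociation list summed to 78.0 against 69.1 UMIs per 10000 and the macrophage list to 0.254 against 2.42, and their part was not tested. Within the Th17-like cluster, which held 24 of the cells, Rora was 14.8 and 10.4, a ratio of 1.42 (1.22 to 1.64), and Ahr had 0 UMIs in the 24 cells and 81 in the other 526, with 0.884 as the upper limit of the ratio. Bhlhe40 (1.02), Batf (1.15) and Maf (0.946) had intervals that include 1. By Rora itself, 1.16% of CD4 class cells with 0 Rora UMIs of 2000 were Il17a-positive (0.467 to 2.37) and 4.33% with 4 or more (2.18 to 7.62). In 20 Il22-positive cells, the cytokine gene Ahr is best known for, Ahr stood at 0.568 (0.228 to 1.17) from 7 UMIs, an interval that covers the CD4 class.

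The Il17a promoter is printed because Rora and Irf4 were called in this comparison and because it holds letters that ROR and AP-1 factors are known to bind. The promoter held no match for the IRF letters that were searched, so only Rora has both a call and a match here. It is the 250 bases before the RefSeq start on GRCm38.p6, plus strand, chr1:20730655-20730904, 5′ to 3′, with the matches in capitals: TGANTCA for AP-1 at -244 to -238 from the start, and AGGTCA for ROR, on the minus strand, at -120 to -115.
Il17a promoter: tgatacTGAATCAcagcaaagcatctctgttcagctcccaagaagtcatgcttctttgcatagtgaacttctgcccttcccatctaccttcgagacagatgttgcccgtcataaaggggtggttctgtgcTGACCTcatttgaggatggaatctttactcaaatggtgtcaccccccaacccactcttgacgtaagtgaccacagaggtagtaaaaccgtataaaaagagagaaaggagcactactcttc
Searched on both strands in windows of 300 bases around each start, TGANTCA was in 7.81% and AGGTCA in 16.3% of the 32851 RefSeq promoters. RefSeq windows were at hand for 4 of the 5 cytokine genes and 3 of the 6 factors. Batf, the AP-1 factor among the 6, was not at 1.5-fold in the Il17a comparison (1.15, 0.949 to 1.37). An IRF match lay in an Il4 promoter, at -190 to -181. In the Il4 comparison Irf4 was lower, with an interval that includes 1 (0.603, 0.275 to 1.15). A ROR match lay at 16 to 21 from the Ifng start, and Rora was at 1.01 in the Ifng comparison of the CD4 class. A match is a description of the letters and not a bound site.

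Cells of 1 clone share a TCR and so a founder, and the factors varied between clones of 1 lineage. A clonotype could be set for 2628 kept cells. In the CD4 class, 672 cells of clonotypes seen in 2 or more cells had less Ahr than 213 cells with a clonotype of their own, at 0.210 against 0.461 UMIs per 10000, a ratio of 0.456 (0.329 to 0.636). The expanded cells had more Irf4 (1.45, 1.08 to 1.96), Maf (1.31, 1.12 to 1.54) and Rora (1.26, 1.17 to 1.36), and Bhlhe40 did not differ beyond counting error (1.02, 0.973 to 1.08). In the CD8 class, 1028 expanded against 242 single cells had less Maf (0.573, 0.422 to 0.787), Ahr (0.550, 0.336 to 0.924), Batf (0.821) and Bhlhe40 (0.870, 0.825 to 0.917). Maf thus stood above 1 for CD4 class cells and below 1 for CD8 class cells; the difference between the classes was not tested. With clonotypes set by the TRB chain alone, the log2 ratio of Maf in the CD8 class was -0.28 in place of -0.80. Clusters were not matched in these ratios, no share over all genes is given for them, and the part of cluster make-up was not tested. The largest clone gave 259 of the 1028 expanded CD8 class cells. Bhlhe40 stood at 6.36 and Batf at 2.15 in that clone, below the 8.56 and 2.51 of all expanded CD8 class cells. Its Maf (0.302) and Ahr (0.0968) were above their 0.193 and 0.0746. The intervals do not cover differences between clones, and the part of this clone in the ratios was not tested.

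Among clones of 10 or more cells, 25 were CD4 and 20 were CD8. Maf separated them without overlap, at 0.681 to 5.17 UMIs per 10000 in CD4 clones (median 2.17) and 0 to 0.472 in CD8 clones (median 0.127). Bhlhe40 overlapped, at 8.63 to 21.8 in CD4 clones (median 13.3) and 5.17 to 15.2 in CD8 clones (median 8.87), and so did Rora (2.24 to 11.6 and 1.89 to 8.74). The CD4 clone with the highest Bhlhe40, 21.8 (18.4 to 25.6), had 14 cells, of which 92.9% were in cluster 6. Of these 14 cells, 5 were Csf2-positive, 3 Ifng-positive and 2 Il10-positive. Another CD4 clone had Bhlhe40 at 21.3 (17.4 to 25.8), and 1 of its 10 cells was Csf2-positive. The CD4 clone with the highest Maf, 5.17 (3.31 to 7.69), had 11 cells, of which 72.7% were in cluster 8 and 4 were Il10-positive. The CD4 clone with the highest Batf, 8.99 (7.77 to 10.4), had 55 cells and none was Csf2-positive. The largest clone, a CD8 clone of 263 cells, had Bhlhe40 at 6.36 (5.98 to 6.75). Of the Il10-positive CD4 class cells with a clonotype, 34 cells fell into 19 clonotypes, and the clonotype with most held 6 of them.

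**Figure D5:**
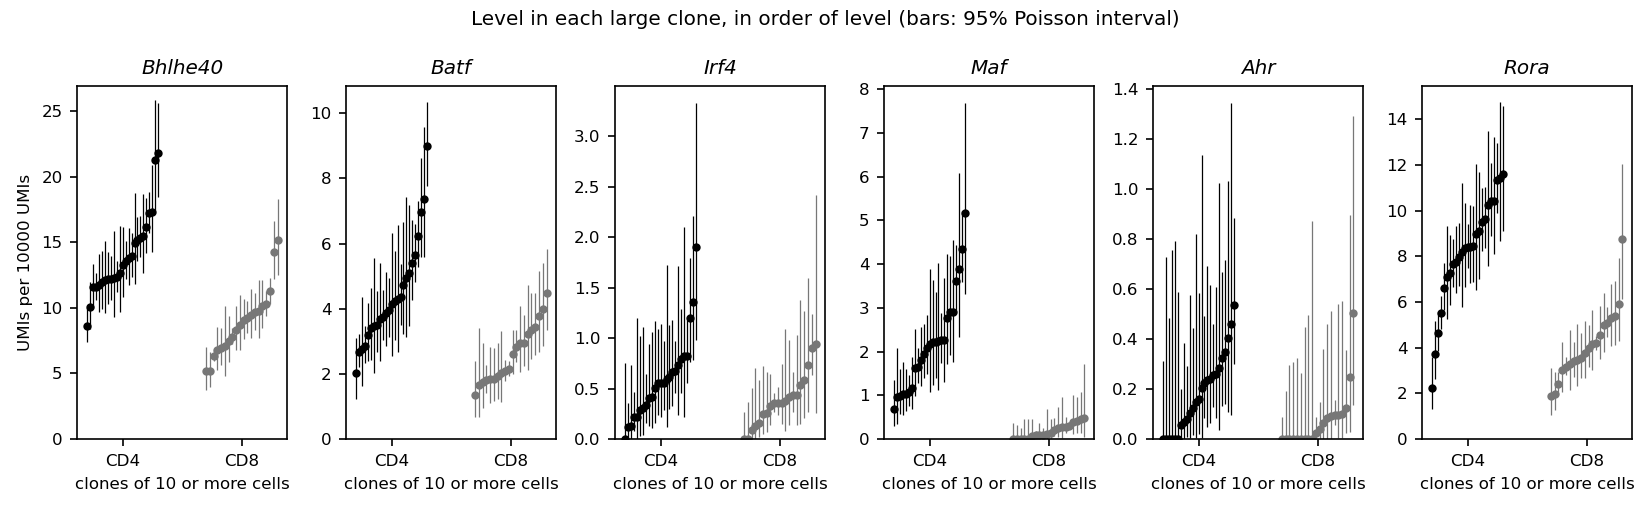
Level of each factor (vertical axis, UMIs per 10000 UMIs) in each of 25 CD4 and 20 CD8 clones of 10 or more cells, in order of level, with 95% Poisson intervals. For Maf the CD4 clones (0.681 to 5.17) lie above the CD8 clones (0 to 0.472), while for the other factors the lineages overlap.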

How the data were processed

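The RNA matrix holds the deposited counts, whole numbers of UMIs for each gene and barcode with no normalization. The TCR table gives the deposited counts of reads and UMIs per contig with the authors' chain, segment and CDR3 annotation. Cell Ranger and mm10 are named, per the submitters' processing notes; versions are not given in the sources used here.

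Members and gene lists were chosen with earlier results of these data known. Cells were kept with at least 500 genes and at most 10% mitochondrial UMIs; no doublet caller was run, and more than 1 productive TRB chain was found in 232 kept cells (4.35%). Cytokine classes were set on cells thinned to 2000 UMIs with seed 1, and every kept cell was deeper than that. For levels, all UMIs of a class were summed without thinning. Ratios have exact conditional binomial intervals, levels Poisson and shares Clopper-Pearson intervals, at 95%. UMIs of 1 cell are not independent, so true errors are larger. A gene was compared where equal levels would put 10 or more UMIs in the smaller class, and for medians a gene with 0 UMIs in 1 class took a floor of 3 UMIs there. Clustering used 2000 variable genes, 30 principal components, 15 neighbours and Leiden resolution 0.8. A cluster took a name from a list with at least 3 markers 2-fold above the other cells and, where another list also reached 3, at least 2 more than that list; the names were rebuilt here, and the naming markers include Il17a and Il4, which clustering left out. Clonotypes were built from V segment, J segment and CDR3 of all productive chains of a cell, where it had a single productive TRB and a TRA. Named genes were the 6 members in every comparison, up to 4 genes of each list with the interval bound farthest from 1, and the 5 genes most like each member over clusters, by Pearson r of log2(level + 0.1) among genes with 200 or more UMIs. Other list genes named were chosen after their values were seen. The code for ratios was first tested on simulated data. Tools were Python 3.11.15, numpy 2.4.6, scipy 1.17.1, pandas 2.3.3, scanpy 1.11.5, leidenalg 0.10.2, scikit-learn 1.9.0 and matplotlib 3.10.9. A gene of the lists is not reported here.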

Additional observations from a re-analysis of the deposited data

Results flagged for a closer look

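Batf in Csf2-positive over Csf2-negative cells went opposite ways in the 2 lineages. In the CD4 class the ratio was 0.89 (0.80 to 0.988, 184 positive cells), and in the CD8 class it was 1.5 (1.15 to 1.92, 26 positive cells, 62 UMIs). The difference between the lineages was not tested, since the pool is 1 sample, and 1 cell held 12.9% of the Batf UMIs of the 26 cells. Over 10 thinnings the CD4 ratio ran from 0.845 to 1.01, and with 1 cell per clonotype (35 positive cells) it was 1.09, on the same side of 1 as the CD8 ratio.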

How the results depend on the processing

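No paired analysis was possible because the series is 1 pooled sample with no groups. Of 811 alternative values, 653 stayed within the interval or within 1.5 times the main count, 155 moved further, and 3 were ratios past 1.5-fold that changed sign. Counted over all 624 log2 ratios, past 1.5-fold or not, 63 changed sign, 56 of them where the interval of the reported ratio includes 1. With 2-fold in place of 1.5-fold, the number of factors past the threshold was 2 for CD4 over CD8 (4 at 1.5-fold), 0 for Csf2, 1 for Il4, 1 for Il17a and 0 for Ifng in the CD8 class. For Csf2 (2 in the report) it was 0 with at least 1000 genes and at most 5% mitochondrial UMIs, with another thinning seed, with 1 cell per clonotype and when standardized to clusters, and 1 without cell filters, with thinning to 3000 UMIs, without thinning and as the mean over seeds. For Ifng in the CD4 class (0) it was 1 without thinning and with 1 cell per clonotype. For Il10 (2) it was 4 with at least 2 UMIs for a positive cell. For Il4 (2) it was 0 when standardized to clusters. For Il17a (3) it was 1 when standardized to clusters, without thinning and with another seed. For Ifng in the CD8 class (2) it was 0 with thinning to 1000 or 3000 UMIs and without thinning, and 1 with the stricter cell filter, another seed, the mean over seeds and standardization. Among ratios past 1.5-fold, the log2 ratio changed sign for Irf4 in the Il4 comparison (0.036 with at least 2 UMIs for a positive cell) and, with 1 cell per clonotype, for Ahr in the Il4 (-1.31) and Il17a (0.65) comparisons; these alternatives leave few positive cells, and the cause was not tested. The 7 sign changes of ratios whose interval excludes 1 all came with 1 cell per clonotype: those of Ahr, and Batf in the Csf2 (0.12), Il10 (-0.12) and Il4 (0.37), Irf4 in the Ifng CD4 (-0.25) and Rora in the Il4 comparison (0.16).

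The log2 ratio of Maf between CD4 and CD8 classes ranged from 2.21, with lineage set by cluster majority, to 3.04, and that of Maf in the Il10 comparison from 0.60, standardized to clusters, to 1.90. Rora in the Il10 comparison ranged from -2.08 to -0.48, and Bhlhe40 in the Csf2 comparison from 0.17 to 0.45. Between the CD4 and CD8 classes, Bhlhe40 fell under 1.5-fold, to 0.50 from 0.62, where only 1 cell of each clonotype was kept. Batf and Irf4, already under 1.5-fold, fell to 0.26 and 0.34 in that setting. Batf passed 1.5-fold, at 0.60, with cells weighted alike. The cluster standardization, the 10 thinnings, lineage by cluster, thinned lineage and leaving out the clone with most positive cells were chosen after seeing the data. Depth limits Irf4 and Ahr most, with 1509 and 802 UMIs in all kept cells.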
